A study of Mus musculus with 6 samples.

Results

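The genes described here are 7 genes whose proteins form or modify the PML nuclear body: *Pml*, *Sp100*, *Sp110*, *Sp140*, *Daxx*, *Sumo2* and *Sumo3*. They were chosen by gene name, with the differences between LIP and Ctrl in these data already known, so the values of that comparison are given for them as a description and without a test. All 7 were found among the 29097 genes listed, each on 1 row that was used, and all 7 were among the 10440 genes with a mean FPKM (fragments scaled to gene length and library total) of at least 1, the genes that were tested. The libraries were made by Smart-seq2, which copies whole mRNAs into cDNA and amplifies them by PCR, from neutrophils sorted from peripheral blood (PB) as CD45+CD11b+Ly6G+ cells. The LIP group (ligature-induced periodontitis) was C57BL/6 male mice, 8 weeks old, with silk tied around molars for 14 d, and the Ctrl group was unligated mice of the same kind. Each group had 3 libraries, and each library pooled the neutrophils of 5 mice, so the spread between libraries is one between pools and not between mice. The labels name no transgene or deletion in either group.

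PML nuclear bodies are round protein assemblies inside the nucleus that are built around the PML protein. PML is modified by SUMO, a small ubiquitin-like protein. Binding between SUMO and short protein motifs helps to bring proteins such as SP100 and DAXX to the body. In many cell types interferon raises the transcription of *Pml* and of the Sp100 family, and the bodies are known for roles in antiviral defence, DNA repair and the storage of histone H3.3. The question put to these genes was how their mRNAs differed between blood neutrophils of LIP and Ctrl mice.

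The genes lie on 5 chromosomes, and the table gives their GRCm38 coordinates. *Pml* lies at chr9:58218076-58249786 on the minus strand, *Daxx* at chr17:33909414-33915590 on the plus strand, *Sumo2* at chr11:115523102-115536229 on the minus strand and *Sumo3* at chr10:77606097-77618331 on the plus strand. The 3 genes of the Sp100 family lie side by side on chromosome 1. *Sp110* (chr1:85576899-85598817, minus strand) and *Sp140* (chr1:85600378-85645037, plus strand) are read away from each other, with 1560 bases between them by these coordinates. Another start site of *Sp110* listed by RefSeq (chr1:85603891) lies inside *Sp140*, and from it the genes overlap. *Sp140* ends 4950 bases before *Sp100* (chr1:85649988-85709998, plus strand).

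Start-site sequences are shown for *Sp100* and *Sp110*, which share a stretch, and for *Pml*, the member whose level differed most. RefSeq lists 13 start sites for the 7 genes (GRCm38.p6), and the 250 bases before each and the 50 bases from it on were searched on both strands. The longest stretch shared by 2 genes with at most 1 mismatch was 18 bases long and lay in *Sp100* and *Sp110*. It is in capitals in the lines for these genes, and the line for *Pml* has a match to AANNGAAA, read from the opposite strand, in capitals. The *Sp100* line is chr1:85649888-85649987 (plus strand) and holds the 100 bases before a start site, with the stretch at positions -49 to -32 where the start-site base is 0. The *Sp110* line is chr1:85598780-85598809 (minus strand) and holds the 30 bases that follow a start site, with the stretch at positions 7 to 24. The *Pml* line is chr9:58249787-58249886 (minus strand), the 100 bases before its start site.
Sp100: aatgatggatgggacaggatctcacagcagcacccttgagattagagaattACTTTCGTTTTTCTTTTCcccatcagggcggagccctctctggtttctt
Sp110: gagatcACTTTCATTTTTCTTTTCttgaag
Pml: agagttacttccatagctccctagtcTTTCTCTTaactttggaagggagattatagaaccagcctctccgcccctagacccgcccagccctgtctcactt

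The shared stretch, with either base at the 1 position that differs, occurred in 4 of the 32851 windows listed for all genes, or 0.0122%. Those 4 windows belonged to 3 genes, *Sp100*, *Sp110* and *Gm7609*. Each copy of the stretch holds 2 matches to AANNGAAA, the core of the sites of interferon regulatory factors, and the 2 matches share 1 base. This motif was looked for after the sequences had been seen. It matched in 5 of the 13 windows, against 23.9% of all windows. These were 1 window each of *Pml*, *Sp110* and *Sumo3* and the 2 overlapping windows of *Sp100*, which hold the same matches. The longer interferon-stimulated element GAAANNGAA matched in 0 of the 13 windows, against 8.56% of all windows, and the gamma-activated site TTCNNNGAA in 0 of 13, against 8.3%. No match says only that these letters are not in these windows. The GC content was 76.3% in the window of *Sumo2* and 69.3% to 69.7% in the 3 windows of *Daxx*, against a median of 52.7% over all windows. It was 53.7% for *Pml*, 52.0% for *Sp140*, 47.7% and 49.0% for *Sp100*, and 45.3% and 55.0% for *Sp110*. The 3 windows of *Sumo3*, at 53.7%, 67.7% and 75%, spanned most of this range.

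Coding sequence is shown for *Sumo2* because other genes hold near-identical copies of it. The lines give coding bases 1 to 90 of *Sumo2*, counted from the first base of the start codon, with the same stretch of 2 processed pseudogenes and of *Sumo3* (GENCODE, GRCm38), and capitals mark bases that differ from *Sumo2*. The *Sumo3* line has 87 bases, as 3 bases of *Sumo2* have no partner in it.
Sumo2: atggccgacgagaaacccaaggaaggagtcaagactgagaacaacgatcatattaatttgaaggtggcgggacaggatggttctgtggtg
Smt3h2-ps4: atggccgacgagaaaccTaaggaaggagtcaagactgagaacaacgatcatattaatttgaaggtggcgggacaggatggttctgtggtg
Gm13690: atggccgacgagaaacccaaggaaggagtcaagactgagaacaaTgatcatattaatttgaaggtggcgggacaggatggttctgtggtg
Sumo3: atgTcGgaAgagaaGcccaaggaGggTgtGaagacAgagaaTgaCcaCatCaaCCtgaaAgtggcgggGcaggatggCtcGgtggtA

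The pseudogene *Gm10241* (chr16:20176727-20177012, minus strand) is identical to *Sumo2* over all 285 coding bases and is therefore not shown. *Smt3h2-ps4* (chr1:14839869-14840156, minus strand) differs from the coding sequence at 1 base and *Gm13690* (chr2:80629284-80629568, minus strand) at 2. *Sumo3* differs at 50 of 282 aligned bases, which is an identity of 82.3%. In the Sp100 family the identity between coding sequences was 60.1% to 62.7%.

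The total count per library lay between 52186555 and 57262379, and no library stood apart from its group in depth. The markers of other cells differed between the groups. All 15 neutrophil markers rose in LIP (summed FPKM 15854 to 19133 in Ctrl and 54071 to 59080 in LIP), all 10 B cell markers fell (3996 to 4340 and 573 to 633), all 10 T cell markers fell (417 to 470 and 63.5 to 78.4), and all 7 erythroid markers tested fell (180633 to 186837 and 19478 to 20186). Of the remaining lists, 6 of 6 tested monocyte and dendritic cell markers, 5 of 5 platelet markers, 3 of 6 NK cell markers and 1 of 5 tested eosinophil and basophil markers rose, and the most abundant gene of each of these 4 lists turned under scaling on the neutrophil markers. That scaling moved the median gene from a log2 fold change of -0.09 to one of -1.89 and each gene by about as much, so a gene whose rise was smaller than this shift turned by construction. *Siglech* and *Prg2* were at 0 in at least 1 library, and the neutrophil, B cell, T cell and erythroid markers listed were above 0 in every library. The most abundant markers of the lists that differed most were *S100a9* (log2 fold change 2.03), *Ighm* (-2.15), *Trbc2* (-2.50) and *Hba-a1* (-2.80). These shifts moved together with the differences of the members described here, and their part in them was not tested. In such bulk libraries fewer cells of a type and less RNA per cell cannot be told apart.

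Across the members, edgeR called 4 of 7 lower in LIP (*Pml*, *Sp110*, *Sumo2* and *Sumo3*), beside 27.2% of all genes tested, and 0 of 7 higher, beside 26.5%. A call here is an adjusted p under 0.05 in the fit over all genes, and nothing is read from these shares since the genes were chosen with the comparison known. *Sp100*, *Sp140* and *Daxx* were not called. The log2 fold changes of the members ranged from -1.97 to -0.08 with a median of -0.70, where all genes tested had a median of -0.09 and quartiles of -0.84 and 0.64. In read counts scaled to library size with the TMM factors of edgeR (CPM), all LIP libraries lay below all Ctrl libraries for 5 of 7 members, beside 33.1% of all genes tested. In FPKM this held for 6 of 7 members, beside 44.4%. The FPKM of all genes summed to 423860 to 432371 in the LIP libraries and to 521382 to 557249 in the Ctrl libraries, and TMM rescales the libraries against each other. With library totals in place of TMM, *Sp100* and *Daxx* were called lower as well, which made 6 of 7 beside 40.0% of all genes tested.

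**Figure D1:**
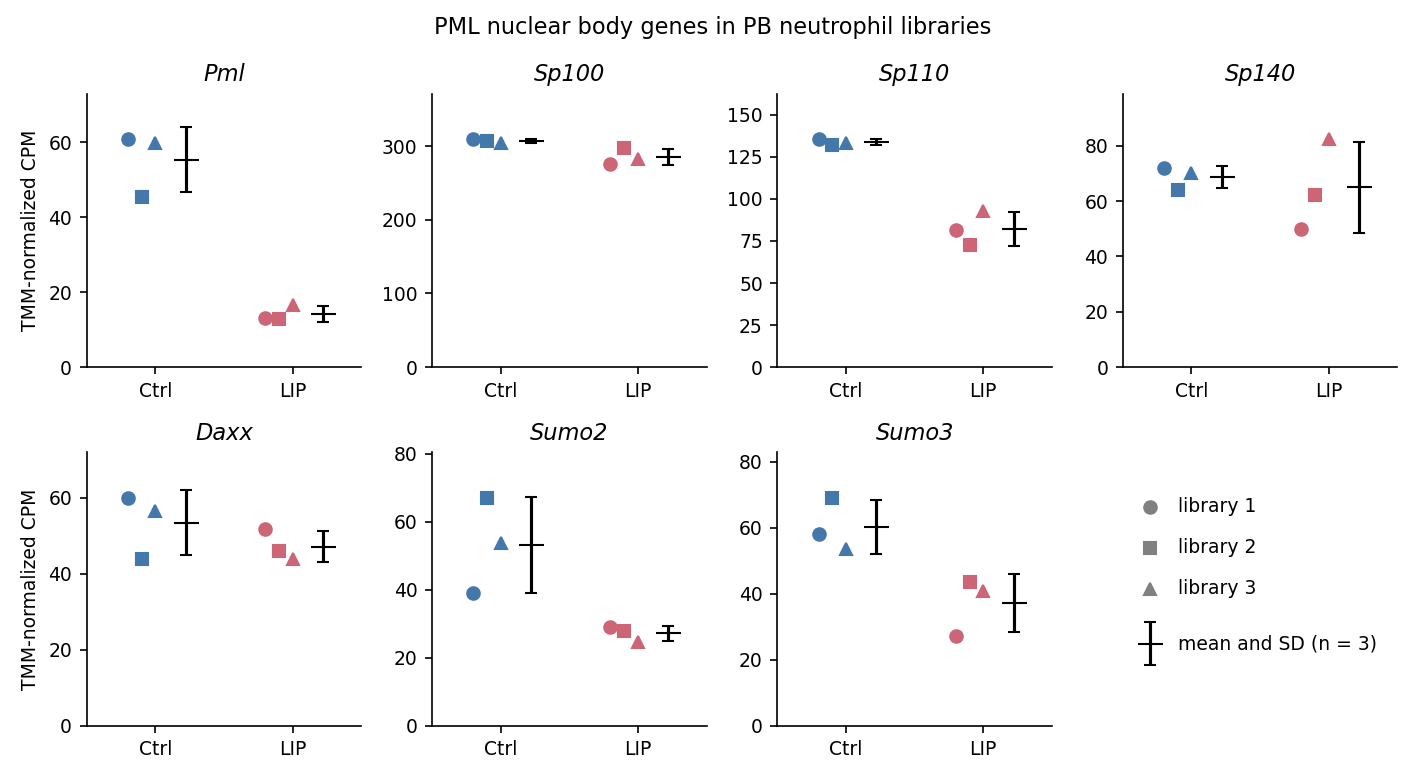
TMM-normalized CPM (linear axis from 0) of the 7 PML nuclear body genes in each Ctrl and LIP library, with symbols for the library number and black bars for the mean and SD of 3 libraries. For *Pml* the LIP libraries lie between 12.8 and 16.5 and the Ctrl libraries between 45.5 and 60.9, while for *Sp140* and *Daxx* the groups overlap.

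*Pml*, the gene of the scaffold protein, had the lowest fold change of the 7. Its CPM was 60.9, 45.5 and 59.9 in the 3 Ctrl libraries and 13.01, 12.8 and 16.5 in the 3 LIP libraries. Every LIP library lay far below the lowest Ctrl library, library 2 of that group. The group means were 55.4 ± 8.62 and 14.1 ± 2.11 (SD, n = 3 each), a level 3.93-fold higher in Ctrl, and the log2 fold change was -1.97 (SE 0.192). These values rest on 2692 to 3623 reads per Ctrl library and 644 to 772 per LIP library. Among all genes tested, 588 (5.63%) had a lower log2 fold change. In FPKM, *Pml* went from a mean of 10.1 ± 1.71, above 66.0% of the genes tested, to 2.08 ± 0.318, above 29.9%. It was the least abundant of the 7 genes in both groups.

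*Sp100* is the gene of the first body component to be described, a protein that binds chromatin. It was the most abundant member in mean FPKM, with the reads on copies of *Sumo2* left out. Its CPM was 309.5, 306.7 and 304.5 in Ctrl and 275.6, 297.6 and 283.2 in LIP. The groups did not overlap, but the gap between them was small beside the level. The log2 fold change was -0.10 (SE 0.091), and the gene was not called.

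*Sp110* encodes a relative of *Sp100* that has been linked to the resistance of mice to intracellular bacteria. Its CPM was 135.5, 132.2 and 133.3 in the Ctrl libraries and 81.3, 72.7 and 92.8 in the LIP libraries. The Ctrl values were almost equal, and all LIP values lay well below them. The group means were 134 ± 1.69 and 82.3 ± 10.1 (SD, n = 3 each) and the log2 fold change was -0.70 (SE 0.123).

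*Sp140*, the third member of the family, encodes a reader of chromatin expressed mainly in leukocytes. In Ctrl its CPM was 71.8, 64.1 and 70.2, and in LIP it was 50.1, 62.3 and 82.4. LIP libraries 1 and 2 lay below all Ctrl libraries and LIP library 3 above all of them. The log2 fold change was -0.08 (SE 0.175), and leaving out LIP library 1 turned it to 0.075.

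The levels of the family could also be set against each other within each library, where no scaling between libraries enters. The FPKM of *Sp110* was 0.488, 0.480 and 0.488 of that of *Sp100* in the Ctrl libraries and 0.328, 0.272 and 0.365 in the LIP libraries. No LIP value reached the Ctrl values. *Sp140* relative to *Sp100* stood at 0.508 ± 0.0293 in the Ctrl libraries and 0.516 ± 0.129 in the LIP libraries (SD over 3 libraries), which overlapped. The ratio of *Pml* to *Sp100* was 0.267, 0.201 and 0.267 in Ctrl and 0.0639, 0.0579 and 0.0790 in LIP.

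*Daxx* encodes a chaperone that deposits histone H3.3 together with ATRX and that SUMO draws into the bodies. Its CPM was 60.0, 43.8 and 56.5 in the Ctrl libraries and 51.8, 46.0 and 43.8 in the LIP libraries. The groups overlapped, because Ctrl library 2 was as low as the LIP libraries. The log2 fold change was -0.18 (SE 0.159). In FPKM the highest LIP library, 13.4, lay just under the lowest Ctrl library, 13.9, so that *Daxx* was the one member whose overlap depended on the unit. Ctrl library 2 was also the lowest of its group for *Pml*, and the ratio of *Pml* to *Daxx* was steady in Ctrl, at 0.574, 0.587 and 0.599. In LIP that ratio was 0.142, 0.156 and 0.213.

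*Sumo2* and *Sumo3* encode the closely related modifiers that can form chains on PML. The CPM of *Sumo2* was 38.9, 67.1 and 53.8 in Ctrl and 29.0, 27.8 and 24.6 in LIP. The Ctrl libraries were spread widely, and the LIP libraries lay close together below them. The group means were 53.3 ± 14.1 and 27.1 ± 2.26 (SD, n = 3 each) and the log2 fold change was -0.97 (SE 0.203). For *Sumo3* the CPM was 58.0, 69.2 and 53.4 in Ctrl and 27.1, 43.5 and 40.7 in LIP. No LIP library reached the Ctrl libraries. The group means were 60.2 ± 8.09 and 37.1 ± 8.77 (SD, n = 3 each) and the log2 fold change was -0.70 (SE 0.195). The call of *Sumo3* was lost without Ctrl library 2, the highest of its group (-0.57), and when no filter on low genes was set (-0.66).

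Within each library the FPKM of *Sumo2* was 1.41, 2.05 and 2.12 times that of *Sumo3* in Ctrl and 2.25, 1.34 and 1.27 times in LIP. The libraries overlapped, so that these genes could not be ranked by how far they differed.

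**Figure D2:**
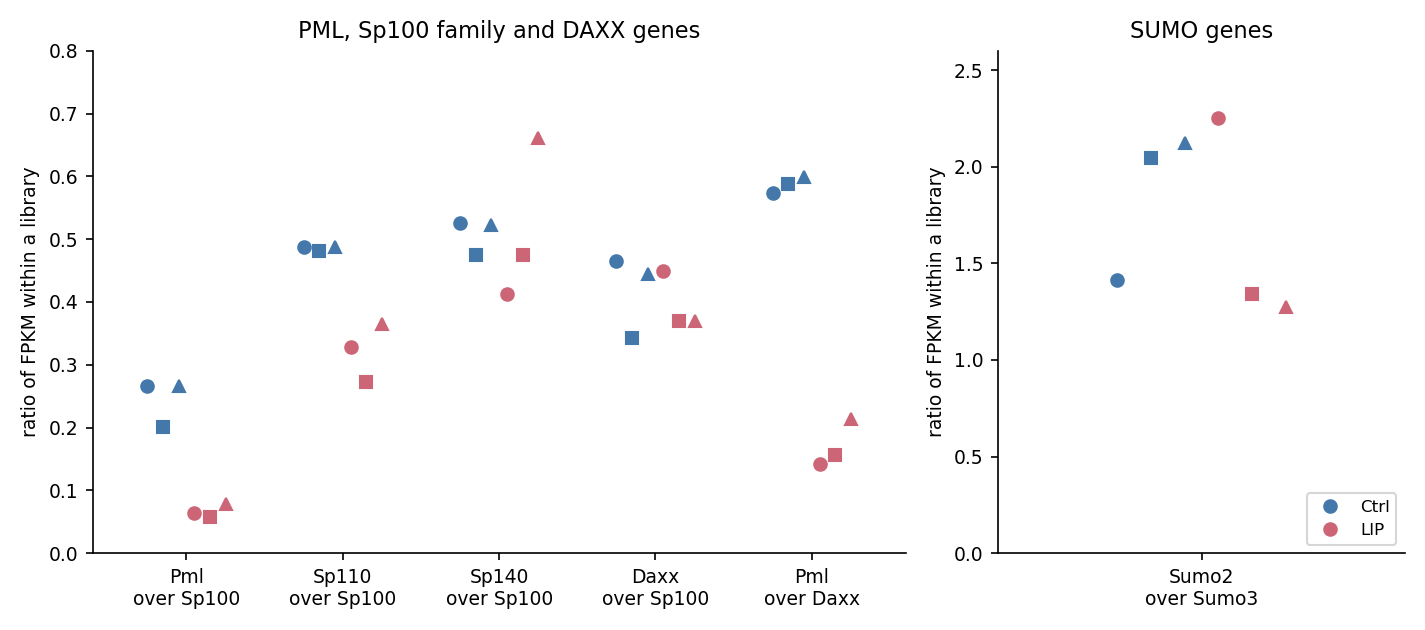
Ratios of FPKM within each library (linear axes from 0; circles, squares and triangles are libraries 1, 2 and 3 of Ctrl and LIP), with *Pml*, *Sp110*, *Sp140* and *Daxx* over *Sp100* and *Pml* over *Daxx* on the left and *Sumo2* over *Sumo3* on the right. The ratios of *Pml* and of *Sp110* over *Sp100* and of *Pml* over *Daxx* are lower in each LIP library than in any Ctrl library, and the other ratios overlap.

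Reads were also counted on copies of *Sumo2*, from which reads of *Sumo2* itself cannot always be told. Of the annotated genes, 12 had at least 90% identity over at least 200 bases of its coding sequence, 7 of them were listed in the table and 3 had a mean FPKM of at least 1. The pseudogene *Gm10241* alone held 1290, 1688 and 1193 reads in Ctrl and 770, 944 and 709 in LIP, beside 2314, 3971 and 3105 and 1441, 1399 and 1149 for *Sumo2* itself. Scaled to length, *Gm10241* stood above *Sumo2*. Its mean FPKM was 84.0 in Ctrl and 47.4 in LIP, beside 31.2 and 12.9 for *Sumo2*. The 7 listed copies together held 32.7% to 41.0% of the summed reads in Ctrl and 39.1% to 46.0% in LIP. How the counting treated reads that fit several places is not given in the sources used here, so the level of *Sumo2* is uncertain. With the copies' reads added, which was chosen after seeing the data, *Sumo2* had a CPM of 65.9, 103.4 and 79.9 in Ctrl and 47.7, 51.4 and 43.9 in LIP. The groups were still apart. The log2 fold change was then -0.80 (SE 0.170).

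**Figure D3:**
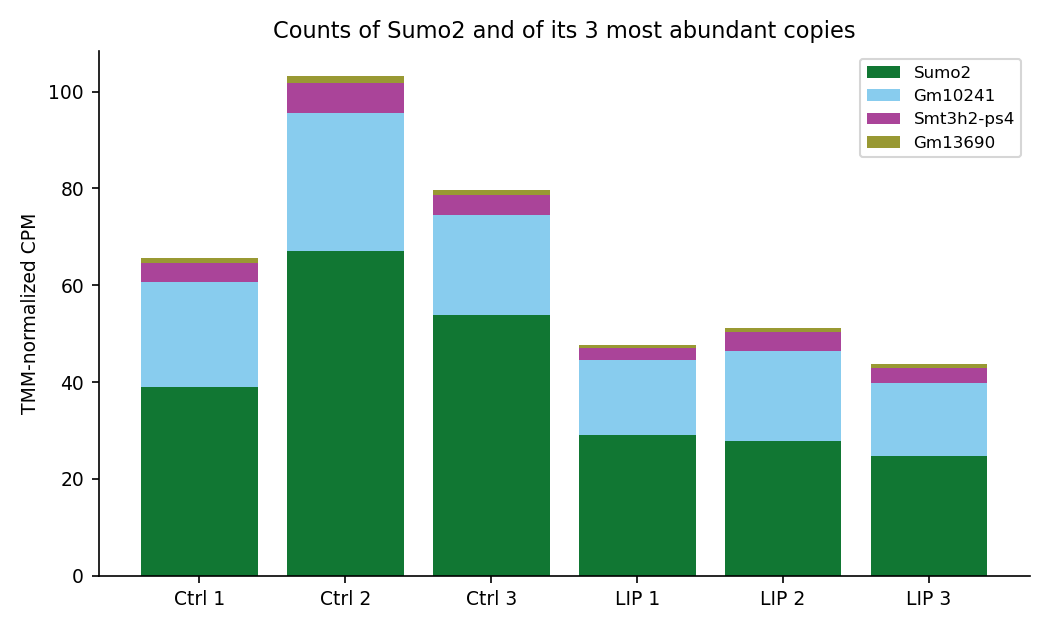
TMM-normalized CPM (linear axis from 0) of *Sumo2* and of its 3 most abundant pseudogene copies, stacked for each Ctrl and LIP library. By reads, not scaled to length, *Gm10241*, identical to *Sumo2* in its coding sequence, takes the largest part after *Sumo2* itself. The stacks of the LIP libraries are lower than those of the Ctrl libraries.

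The Sp100 family has copies as well, but their pseudogenes held few reads. *Pml* and *Daxx* had 0 such copies, *Sp100* had 3, *Sp110* had 4, *Sp140* had 9 and *Sumo3* had 2. The reads of pseudogene copies came to 5.29% to 6.18% of the summed reads for *Sp110*, at most 3.41% for *Sp140*, at most 0.284% for *Sp100* and at most 0.182% for *Sumo3*. Adding them changed no call of a member. Copies not annotated as pseudogenes were left as they were, among them *A530032D15Rik*, named after its values were seen, with 96.3% identity to *Sp140* over 430 bases and a mean of 7.57 FPKM in Ctrl and 6.06 in LIP.

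Reads could also be shared within the *Sp140* locus. *Gm10552*, an antisense RNA gene on the minus strand (chr1:85604085-85611896), lies with all its 7812 bases inside *Sp140* on the other strand. It fell in LIP, from a mean of 12.3 ± 1.76 FPKM to 1.78 ± 0.226 (SD, n = 3 each), with a log2 fold change of -2.46 (SE 0.307, adjusted p = 7.8e-05), while *Sp140* had -0.08. The use of strand in the counting is not given in the sources used here, and without strand the reads of both genes cannot be told apart. *Gm16094*, an antisense gene in the gap between *Sp110* and *Sp140*, had a mean of 3.27 ± 1.66 FPKM in Ctrl and 2.08 ± 1.34 in LIP (SD over 3 libraries) and a log2 fold change of -0.34 (SE 0.625, adjusted p = 0.669).

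Set in order of mean FPKM, the only scale used here between genes, the members of the Ctrl group stood as *Sp100* (41.4), *Sumo2* (31.2), *Sp140* (21.0), *Sp110* (20.1), *Daxx* (17.3), *Sumo3* (16.7) and *Pml* (10.1). The libraries of *Sp140* and *Sp110*, of *Sp110* and *Daxx* and of *Daxx* and *Sumo3* overlapped, and these neighbours were not separated beyond their spread. In LIP the order was *Sp100* (31.1), *Sp140* (16.1), *Sumo2* (12.9), *Daxx* (12.3), *Sp110* (9.98), *Sumo3* (8.36) and *Pml* (2.08). Here *Sp140* and *Sumo2*, *Sumo2* and *Daxx*, and *Sp110* and *Sumo3* overlapped. *Sp100* at the top and *Pml* at the bottom were apart from their neighbours in both groups. The FPKM of *Sumo2* in these orders leaves out the reads on its copies. Its place, and that of *Sp100* above it in Ctrl, is therefore uncertain.

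The enzymes that attach and remove SUMO and the partner proteins of the bodies were read from 6 lists with 54 genes, of which 49 were tested. Of these, 8 rose, 7 fell and 34 were not called, 16.3% and 14.3% beside 26.5% and 27.2% of all genes, and their median log2 fold change was -0.04 beside -0.09. The split depended on the scale, as 1 gene rose and 21 fell with library totals. With those totals 1898 of the 10440 genes tested rose and 4179 (40.0%) fell. The count of 8 became 4 without Ctrl library 3 and 5 without LIP library 1. Of the SUMO proteases tested 0% fell and 12.5% rose, and of the ubiquitin enzymes 0% fell and 20% rose. In the SUMO conjugation list 9.09% fell and 0% rose, beside 27.2% and 26.5% of all genes. Of its 11 genes tested only *Sae1*, a subunit of the activating enzyme, fell (log2 fold change -1.22, SE 0.149, adjusted p = 6.7e-05), and its partner subunit *Uba2* was not called (-0.22, SE 0.141). Of 8 SUMO proteases tested only *Senp2* rose (0.52, SE 0.117, adjusted p = 0.0036), a direction that turned under scaling on the neutrophil markers. Of the 5 ubiquitin enzymes of SUMO chains and PML bodies only *Mdm2*, the ligase of p53, rose (0.92, SE 0.248, adjusted p = 0.0099), and it turned under the same scaling.

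Among 7 histone chaperones and H3.3 genes tested, 3 rose (42.9%) and 1 fell (14.3%), beside 26.5% and 27.2% of all genes. *Asf1a*, a chaperone of histones H3 and H4, fell (log2 fold change -1.20, SE 0.195), while *Morc3*, an ATPase of the bodies (0.58, SE 0.180), and *H3f3a*, a gene of H3.3 (0.42, SE 0.0899), rose and turned under scaling on the neutrophil markers. *Daxx*'s partner *Atrx* was not called (-0.16, SE 0.122). Of 9 kinases, acetyltransferases and p53 tested, 2 fell (22.2%) and 1 rose (11.1%). *Trp53*, the gene of p53, fell (-1.31, SE 0.134, adjusted p = 1.9e-05), *Csnk2a1*, a catalytic subunit of casein kinase 2, fell (-0.53, SE 0.207) with an adjusted p of 0.0496, which became 0.056 with a replicate block, 0.065 with median-of-ratios factors and 0.147 with no filter, and the acetyltransferase *Ep300* rose (0.43, SE 0.152) but turned under that scaling. Of 9 DNA repair genes and other partners tested, 3 fell (33.3%) and 2 rose (22.2%). *Topbp1*, a checkpoint protein (-1.29, SE 0.354), and the ubiquitin ligase *Trim27* (-0.96, SE 0.161) fell. *Rara*, the retinoic acid receptor that is fused to PML in acute promyelocytic leukaemia, rose (1.68, SE 0.131, adjusted p = 2.8e-06), as did *Zbtb16*, another fusion partner of that receptor (0.98, SE 0.375), and both turned under scaling on the neutrophil markers. With library totals the calls of *Senp2*, *Mdm2*, *Morc3*, *H3f3a*, *Ep300* and *Zbtb16* were lost. Single libraries decided some of the calls: that of *Csnk2a1* was lost without any one of the libraries but LIP library 2 (-0.62 to -0.40), that of *Ep300* without Ctrl library 2 or 3 or LIP library 1 or 3 (0.34 to 0.43), that of *Morc3* without Ctrl library 2 or 3 or LIP library 1 (0.46 to 0.52), and that of *Zbtb16* without Ctrl library 2 or 3 or LIP library 2 or 3 (0.58 to 1.08).

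A longer list came from the table's own Gene Ontology annotation, in which 90 genes beside the members carry the term PML body and 29 of these are also in the 6 lists. Of the members, 5 carry the term and *Sp110* and *Sp140* do not. Of the 75 genes tested, 17 rose (22.7%), 21 fell (28.0%) and 37 were not called, close to the shares of all genes, and the median log2 fold change was 0.13. Outside the 6 lists the largest falls were those of *Ciita*, the transactivator of MHC class II genes (-2.22, SE 0.176, adjusted p = 3.1e-06), *Chd3*, a nucleosome remodeller (-1.80, SE 0.226), and *Arntl*, a clock transcription factor (-1.68, SE 0.507), whose call was lost without Ctrl library 1 (-1.49) or LIP library 3 (-1.37) and with no filter on low genes (-1.64). Without LIP library 2 the fall of *Arntl* was larger (-2.66). *Wdfy3*, a protein of selective autophagy, rose most (2.28, SE 0.187, adjusted p = 4.0e-06), followed by *Basp1* (1.58, SE 0.116) and *N4bp1* (1.36, SE 0.132), which both turned under scaling on the neutrophil markers. Scaled by library totals, 8 genes of this list rose and 30 fell. On that scale 1898 of all 10440 genes tested rose and 4179 (40.0%) fell.

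**Figure D4:**
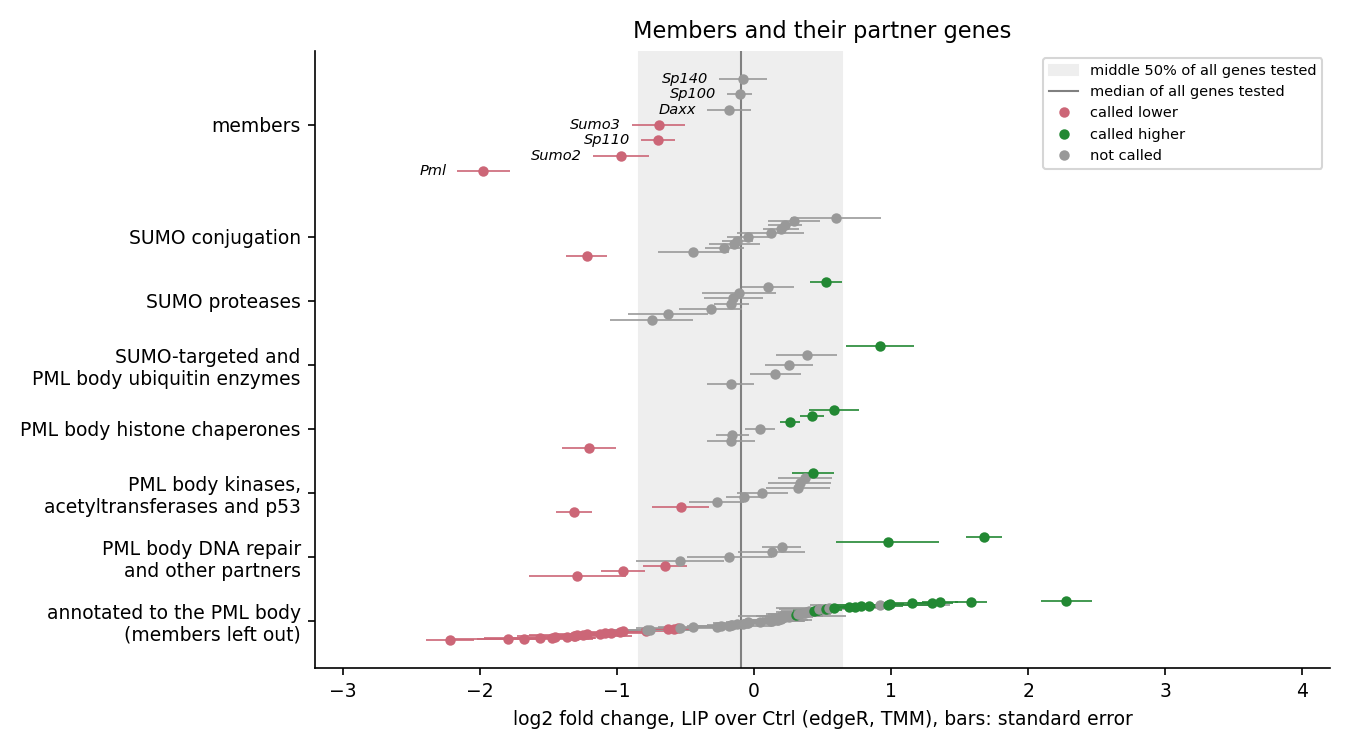
Log2 fold changes of LIP over Ctrl (edgeR, TMM) with standard errors for the 7 members, the tested genes of the 6 partner lists and the tested genes annotated to the PML body, 1 point a gene. The grey line and band are the median (-0.09) and the quartiles (-0.84 and 0.64) of all 10440 genes tested, and colours mark calls. The members lie between -1.97 (*Pml*) and -0.08 (*Sp140*), and the partner lists lie on both sides of it.

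The genes whose values over the 6 libraries were most like those of each member were found by the root mean square difference between centred log2 CPM values, which is a description over 6 points that all share the group difference. For *Pml* these were *Snx29* (0.093), *Snx5* (0.114) and *Ppp3cc* (0.119), where the median over all genes was 1.03, and the nearest other member was *Sp110* at 0.645. For *Sp100* they were *Nrf1*, *Selenot* and *Hnrnpm* (0.025 to 0.044), for *Sp110* *Rbm3*, *9030025P20Rik* and *Fip1l1* (0.049 to 0.063), and for *Sp140* *Reps1*, *Rhob* and *Cdk16* (0.059 to 0.093). For *Daxx* they were *Cpsf3*, *Ubap2l* and *Polr3c* (0.039 to 0.055), and for *Sumo2* *Rps26*, *Naa38* and *Particl* (0.073 to 0.104). For *Sumo3* they were *Gm13690*, *Pdhb* and *Psma5* (0.049 to 0.062), the first of which is the copy of *Sumo2* shown above. No member was among the 3 genes nearest to another member. With 10440 genes tested this cannot show whether the members vary together.

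The scale on which a difference is read moved all genes together. With TMM, 2766 genes were called higher and 2835 lower, so that 49.4% of the calls were higher. This share was 31.2% with library totals, 31.7% with limma on log2(FPKM + 1) and 0.734% with scaling on the 15 neutrophil markers, under which the median of all genes was -1.89 (-0.42 with library totals). Relative to the median of all genes, *Pml* lay at -1.88 with TMM and between -2.10 and -1.54 over 16 alternatives. *Sumo2* lay at -0.88 (-1.10 to -0.67), *Sp110* at -0.61 (-0.83 to -0.42) and *Sumo3* at -0.60 (-0.83 to -0.41), all on the same side in each alternative. *Daxx* at -0.09 (-0.31 to 0.10), *Sp100* at -0.01 (-0.23 to 0.18) and *Sp140* at 0.01 (-0.21 to 0.21) lay on either side of that median. The upper ends of these ranges came from the fit with no filter, whose median was taken over 29097 genes (-0.25). Only in that fit did *Daxx* lie above the median. The lower ends came from the fit at a mean FPKM of at least 5, with a median over 5328 genes (-0.05). A scaling shifts all genes alike, so the alternatives that differ only in scaling could not move the distances of the members from the median. With each of them *Pml* stayed at -1.88. The ranges rest on the other alternatives, and of these the adding of copies was unplanned.

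**Figure D5:**
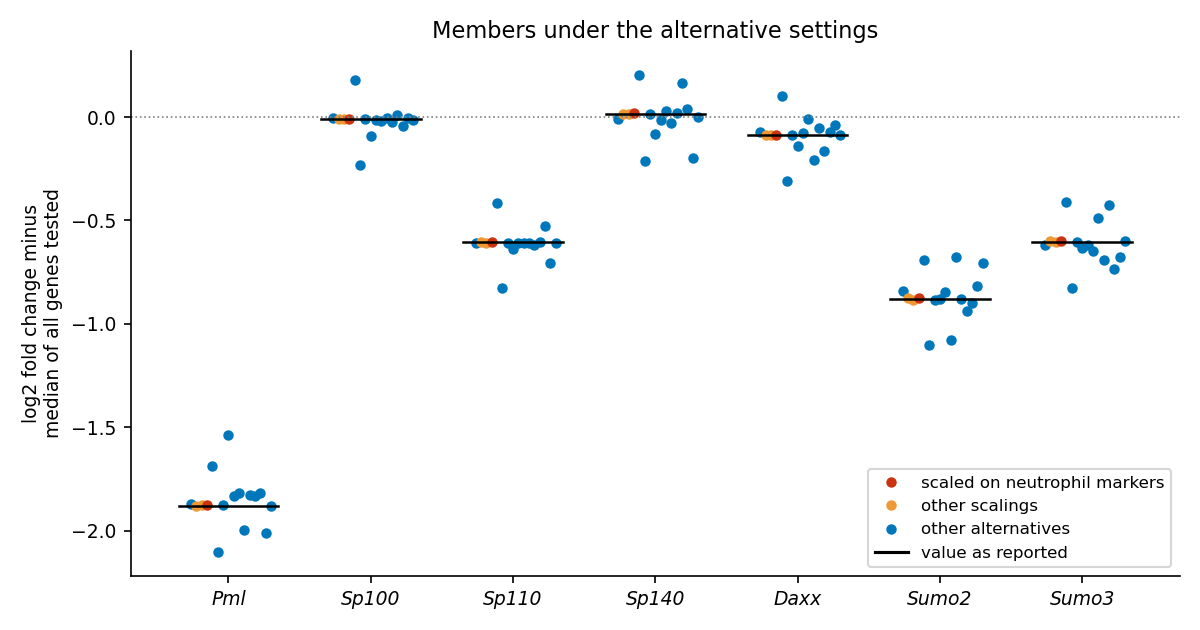
Log2 fold change of each member minus the median of all genes in the same fit (linear axis). The black line is the reported fit and the points are 16 alternatives, coloured by kind of alternative. With other filters on low genes the median is that of another set of genes. *Pml*, *Sumo2*, *Sp110* and *Sumo3* lie below 0 in each alternative shown, and the points of *Sp100*, *Sp140* and *Daxx* lie on both sides of 0. *Daxx* lies above 0 only in the fit with no filter. The points of the scalings stay near the black line by construction, since a scaling shifts all genes alike.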

How the data were processed

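For each of the 6 Smart-seq2 libraries the authors deposited a raw count of reads on every gene and an FPKM value, which the authors made by dividing the count by the length of the gene and by a factor of the library. The submitters' processing notes name cutadapt 1.9, FastQC and GRCm38. The aligner, the counting tool and the use of strand are not given in the sources used here. The table also holds Gene Ontology terms, which were used for 1 list. The members and the gene lists were chosen with earlier results of these data known.

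Counts of 10440 genes (mean FPKM of at least 1) were fitted with edgeR 4.0.16 (R 4.3.3; quasi-likelihood test, TMM, no replicate block), with Benjamini-Hochberg adjusted p under 0.05 as the call. The standard error is the absolute log2 fold change over the root of the F statistic. The common biological coefficient of variation was 0.265. Where a name stood on several rows (50 names), the row of higher mean FPKM was used. Reads carry no molecular identifiers, so depth (52186555 to 57262379 counts) overstates the number of molecules, and p-values measure the spread between pools of mice. The fits were also run on simulated counts with few changed genes and no shift between the groups like the one seen here. That run could not test the scaling of these data. Copies were found with blastn 2.17.0. Genes named are the members, the 2 highest and 2 lowest called genes of each partner list, the 3 highest and 3 lowest called genes annotated to the PML body outside those lists, abundant markers, the 3 genes of most similar pattern, and expressed genes between *Sp110* and *Sp100*. *Uba2* and *Atrx* fall outside this rule and were named after their values were seen. Alternatives were DESeq2 1.42.0, limma 3.58.1 on log2(FPKM + 1) and log2(FPKM + 0.1), other scalings and filters, a replicate block and leaving out each library. A few list genes are counted without being described singly.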

Additional observations from a re-analysis of the deposited data

How the results depend on the processing

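Replicate numbers were not used to pair the libraries. Same-numbered libraries came from different mice, and the labels do not say whether they shared a batch. Their deviations correlated at -0.0083, 0.0444 and 0.021, and those of differently numbered libraries at -0.0465 to 0.0281. With a replicate block 2724 genes were called higher and 2822 lower, members stayed at 0 higher and 4 lower, partner genes at 8 and 7 and annotated genes at 17 and 21, but the calls of *Csnk2a1* (-0.54, adjusted p = 0.056) and *Zbtb16* (0.93, adjusted p = 0.10) were lost. Scaling on the neutrophil markers moved most: 68 genes were higher and 9198 lower, with 7 members lower, 0 partner genes higher and 47 lower, and 1 annotated gene higher and 71 lower. It turned 13 named genes below 0: *Basp1* (-0.21), *Ep300* (-1.36), *H3f3a* (-1.37), *Mdm2* (-0.87), *Morc3* (-1.21), *N4bp1* (-0.44), *Rara* (-0.11), *Senp2* (-1.27), *Zbtb16* (-0.81) and the markers *Gzma* (-1.59), *Ly6c2* (-1.01), *Ppbp* (-0.56) and *Siglecf* (-0.35). Library totals gave 1 partner gene higher and 21 lower and 8 annotated genes higher, beside 1898 of all genes tested higher and 4179 (40.0%) lower. limma with a pseudocount of 1 gave 4271 genes lower, 1 partner gene higher and 16 lower, and 7 annotated genes higher, and with a pseudocount of 0.1 these list counts were 1, 15 and 7. *Gzma* turned under library totals (-0.12) and both limma fits (-0.10 and -0.10). Without a filter 5 partner and 11 annotated genes were higher, and at a mean FPKM of at least 5 these were 4 and 11, with 1761 genes higher in all. Leaving out a library gave 4 to 9 partner genes higher and 6 to 8 lower, 3 or 4 members lower, and 2419 to 2615 genes higher and 2255 to 2770 lower. In those fits *Sp140* lay between -0.29 and 0.075 and *Gm16094* between -0.81 and 0.19. The 105 refits of the members outside neutrophil scaling draw on the same 6 libraries and are not independent. Of them 96 kept direction and side of the threshold, 6 gained a call, 2 lost it and 1 turned. The cause was not tested, except that fewer genes or libraries enter where they are left out. The member with fewest reads, *Pml*, had at least 644, but without molecular identifiers the number of molecules behind them is unknown.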
